A study of Mus musculus with 3 samples.

Results

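T lymphocytes were examined in tissue masses formed 5 days after subcutaneous implantation of Matrigel, a basement membrane gel, in female CD-1 mice of 6 to 8 weeks. Masses of a group were dispersed with dispase and read as 1 droplet scRNA-seq library, so each group had no replicate. Matrigel-only masses held the gel without rhBMP2 and their mice received nothing by mouth. Vehicle masses held rhBMP2, recombinant human bone morphogenetic protein 2, which drives ectopic cartilage and bone, and the mice received corn oil with DMSO. Palo masses held rhBMP2 in mice given palovarotene, an agonist of the retinoic acid receptor gamma, at 4 mg/kg. CD-1 is an outbred stock, and the labels name no engineered allele.

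A cell was taken as a T lymphocyte when it had 200 to 6000 detected genes, at most 5% mitochondrial UMIs (unique molecular identifiers, 1 per captured transcript), less than 1% of its UMIs from *Col1a1*, *Col1a2*, *Col3a1*, *Dcn* and *Lum*, no UMI of the macrophage genes *C1qa* and *Csf1r*, and a UMI of at least 2 of *Cd3e*, *Cd3d*, *Cd3g* and *Trac*. This found 182 of 21503 cells that passed the gene and mitochondrial limits. There were 21 T lymphocytes in the Matrigel-only library, 138 in Vehicle and 23 in Palo. The selecting genes lie on chromosome 9 (*Cd3g* at chr9:44969572-44980431, *Cd3d* at chr9:44981786-44987339 and *Cd3e* at chr9:44998740-45009627, mm10) and chromosome 14 (*Trac* at chr14:54220521-54224206). Because these cells were selected on measured values, the levels of the 4 selecting genes are a description only. With 1 library per group, no test between groups was possible, the treatment and the library cannot be told apart, and all intervals are 95% intervals that cover counting error only.

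T lymphocytes recognise peptide or other ligands through a receptor of paired alpha and beta or gamma and delta chains, which signals through the CD3 chains. Helper cells carry the co-receptor CD4 and cytotoxic cells carry CD8. Regulatory T cells, a CD4 subset defined by the transcription factor FOXP3, restrain other immune cells and also take part in the repair of injured tissue. Interferons induce a common set of antiviral and antigen-presenting genes in nearly every cell type, T cells included.

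The cells carried T lineage transcripts that the selection did not use. All 13 of 13 other T cell genes were seen in the cells of every library, each at a higher level than in the remaining cells. *Lck*, the kinase that starts T cell receptor signalling, stood at 541, 466 and 334 CPM (UMIs of the gene per 1000000 UMIs) in T lymphocytes, against 1.25, 4.65 and 1.01 CPM in the other cells. Here and wherever 3 values are listed, the order is Matrigel-only, Vehicle, Palo. At least 3 of the 13 genes were present in 19 of 21, 133 of 138 and 23 of 23 cells. A transcript of any T cell receptor constant gene was found in 18 of 21, 134 of 138 and 22 of 23. The beta chain constant genes were not limited to these cells, since *Trbc1* was also read in 14 of 26, 45 of 78 and 10 of 15 natural killer (NK) cells, the innate lymphocytes most like cytotoxic T cells.

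The receptor beta chain is encoded with either of 2 nearly identical constant genes. Their aligned transcripts matched at 95.6% of 520 bases, with 1 difference in the first 370 bases. The windows of bases 371 to 470 of the GENCODE vM21 transcripts Trbc1-202 and Trbc2-201 are printed 5′ to 3′ because they hold 12 of the 23 differences, shown in capitals, by which a read can be given to one gene or the other.
Trbc1: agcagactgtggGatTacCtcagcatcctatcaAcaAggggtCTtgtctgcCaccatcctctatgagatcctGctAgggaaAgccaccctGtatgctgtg
Trbc2: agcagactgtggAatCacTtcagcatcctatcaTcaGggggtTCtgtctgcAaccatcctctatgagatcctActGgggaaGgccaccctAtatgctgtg
In Vehicle, 75 T lymphocytes had only *Trbc2*, 9 only *Trbc1*, 43 both and 11 neither. In Matrigel-only the corresponding numbers were 7, 3, 6 and 5, and in Palo 10, 2, 7 and 4. A mature alpha-beta T cell normally expresses 1 of these genes, and the division of reads between them is uncertain where a read covers only shared bases.

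T lymphocytes made up a larger share of the Vehicle library than of either other library. They were 0.241% of cells in Matrigel-only (95% exact binomial interval 0.149 to 0.368), 2.52% in Vehicle (2.12 to 2.97) and 0.315% in Palo (0.1999 to 0.473). The Vehicle interval did not overlap either of the others. Vehicle exceeded Matrigel-only by 2.28 percentage points (1.88 to 2.74), a ratio of 10.5. The size of this ratio depended on the threshold, since the shares were 0.0687%, 1.81% and 0.151% with at least 3 marker genes and 0.470%, 3.03% and 0.548% with at least 1. Palo differed from Vehicle by -2.20 points (-2.67 to -1.79), a ratio of 0.125. Palo and Matrigel-only differed by 0.0746 points with an interval from -0.0902 to 0.253, so that no difference was detectable at this depth. More T cells and fewer cells of other types give the same share and cannot be told apart here.

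**Figure D1:**
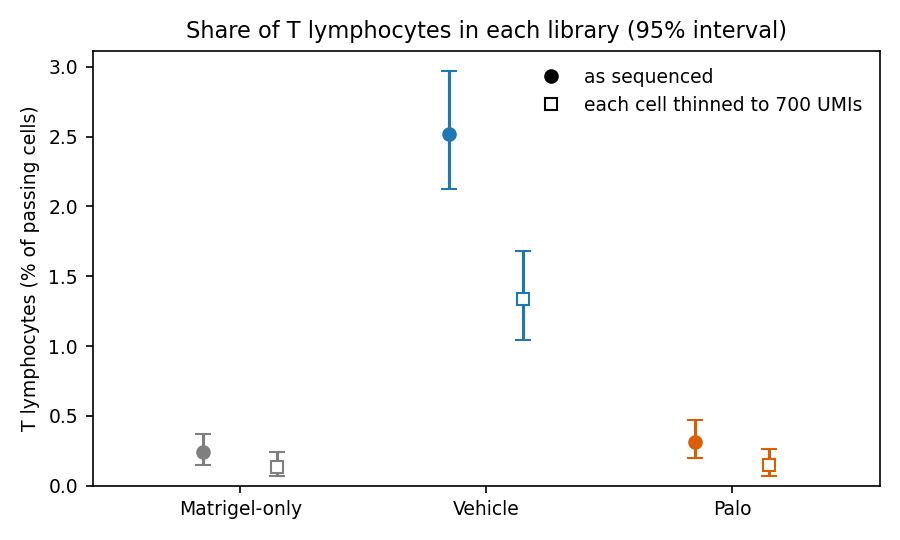
Share of T lymphocytes among all cells that passed the gene and mitochondrial limits in each library, in percent, as sequenced and after every cell was thinned to 700 UMIs. Points are the shares and bars are 95% exact binomial intervals; Vehicle stands at 2.52% as sequenced and 1.34% thinned, above both other libraries in each case.

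Sequencing depth differed between the T lymphocytes of the 3 libraries. The median Matrigel-only T lymphocyte had 947 UMIs (504 to 2188), the median Vehicle cell 2387.5 (609 to 15246) and the median Palo cell 1553 (689 to 16706). Every cell was therefore also thinned to 700 UMIs, which left out 221, 166 and 57 shallower cells. The thinned shares were 0.136% (0.0691 to 0.2395), 1.34% (1.05 to 1.68) and 0.147% (0.0721 to 0.265), so that Vehicle was 9.84 times Matrigel-only and Palo 0.110 of Vehicle. The order of the libraries was the same at both depths.

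Selection limits and neighbouring populations were counted as well. Cells just inside the marker threshold, with exactly 2 of the 4 genes, numbered 15, 39 and 12 in Matrigel-only, Vehicle and Palo, and cells just outside it, with exactly 1, numbered 20, 28 and 17. Of the latter, 16, 14 and 13 had a *Trbc1* or *Trbc2* UMI, which NK cells also carry. NK cells were also a larger share of Vehicle, at 0.298%, 1.42% and 0.206% of cells. There were 0.808, 1.77 and 1.53 T lymphocytes per NK cell. Barcodes shared between pairs of libraries numbered 19, 21 and 11, and no T lymphocyte was among them.

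*Trac* was also read in cells that the selection excluded. In Vehicle mesenchymal cells, 52 of 499 (10.4%) had a *Trac* UMI as sequenced and 0.535% did after thinning. These cells held 66 *Trac* UMIs and a *Cd3e* UMI in 1 cell, whereas the Vehicle T lymphocytes held 195 and 189 UMIs of *Trac* and *Cd3e*. In Matrigel-only, 6 of 1266 mesenchymal cells had a *Trac* UMI, and in Palo 5 of 752. No mesenchymal cell could be counted as a T lymphocyte, because of the limit of 1% on mesenchymal UMIs.

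Among the subset genes, *Cd4* (chr6:124864692-124888221) was in Vehicle and Palo the most often seen of the 3 used to describe the make-up. In Matrigel-only, *Cd4* and *Trdc* were each seen in 1 cell. A *Cd4* UMI was present in 1 of 21 Matrigel-only T lymphocytes (4.76%, 0.121 to 23.8), in 55 of 138 Vehicle cells (39.9%, 31.6 to 48.5) and in 8 of 23 Palo cells (34.8%, 16.4 to 57.3). Thinned to 700 UMIs, the shares were 4.19% (0.0468 to 24.5), 17.6% (11.7 to 25.1) and 14.3% (3.20 to 35.7). The 3 thinned intervals overlapped. The summed *Cd4* level was 38.7, 334 and 228 CPM. Vehicle minus Palo was 3.35 points after thinning, with an interval from -17.2 to 15.1, and this width does not allow the shares to be called alike. In macrophages, which also transcribe *Cd4* at a low level, the shares were 3.94%, 4.12% and 2.20% at median depths of 3101, 4044 and 4060.5 UMIs, and 0.887%, 0.813% and 0.459% thinned. No NK or B cell had a *Cd4* UMI.

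*Cd8a* (chr6:71373427-71379173), which encodes a chain of the cytotoxic co-receptor, was rare. It was found in 0 of 21 Matrigel-only cells, which at a count of 3 cells as the limit for 0 allows up to 14.3% of cells to carry a UMI. At the depth of these cells this is no limit on the share that expresses the gene. It was found in 7 of 138 Vehicle cells (5.07%, 2.06 to 10.2) and in 1 of 23 Palo cells (4.35%). After thinning the Vehicle share was 3.05% (0.866 to 7.48) and the Palo share 2.15%. Of the Vehicle cells, 4 had *Cd8b1*, the partner chain, together with *Cd8a*. *Cd8a* was at 0 in NK cells of all 3 libraries and was seen in 1 of 4111 Matrigel-only macrophages.

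*Trdc* (chr14:54142851-54148868), the constant gene of the delta chain, was seen in 1, 9 and 1 T lymphocytes, which in Vehicle was 6.52% (3.03 to 12.0) and 3.73% thinned (1.24 to 8.42). These shares were below those of NK cells, in which 12 of 26, 20 of 78 and 7 of 15 had a *Trdc* UMI. The thinned NK shares were 24.8%, 9.35% and 16.2%. *Trdc* alone therefore did not separate T lymphocytes from NK cells here. The 8 Vehicle cells with *Trdc* and neither *Cd4* nor *Cd8a* had no UMI of *Trac*, the alpha chain constant gene, whereas *Trbc1* was read in 6 of them, *Trbc2* in 6 and *Tcrg-C4*, a gamma chain constant gene, in 5. NK cells likewise had beta chain constant gene UMIs and almost no *Trac*, in 0 of 26, 0 of 78 and 1 of 15 cells. The gamma constant genes resemble each other, and the division of reads among them is uncertain.

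Most T lymphocytes of the shallower libraries showed none of the 3 genes. Such cells numbered 19 of 21, 68 of 138 and 13 of 23. The Vehicle cells with none had a median depth of 2056.5 UMIs. They included 19 with a *Foxp3* UMI. *Il17a*, encoding the cytokine interleukin 17A, was at 0 in the T lymphocytes of every library.

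**Figure D2:**
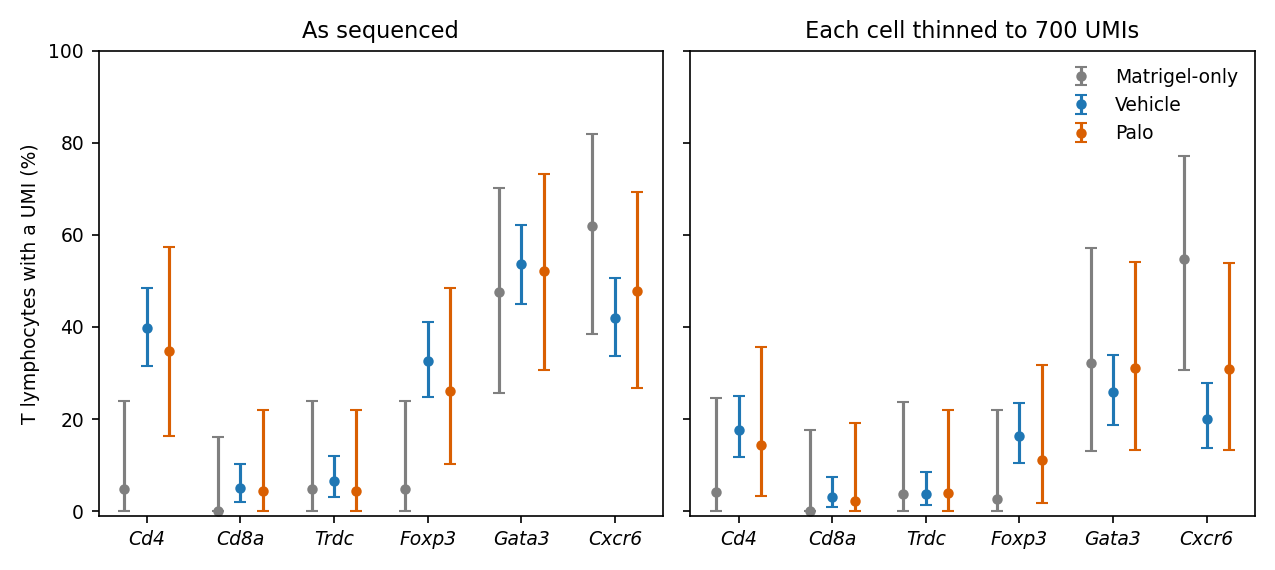
Percent of T lymphocytes with at least 1 UMI of *Cd4*, *Cd8a*, *Trdc*, *Foxp3*, *Gata3* and *Cxcr6* in each library, as sequenced and after thinning to 700 UMIs; bars are 95% exact binomial intervals. Thinning lowers the Vehicle *Cd4* share from 39.9% to 17.6%, and *Cxcr6* stands at 54.7% thinned in Matrigel-only against 20.03% in Vehicle.

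*Foxp3*, the defining gene of regulatory T cells, was read in all 3 libraries. It was detected in 1 of 21 Matrigel-only cells, in 45 of 138 Vehicle cells (32.6%, 24.9 to 41.1) and in 6 of 23 Palo cells (26.1%, 10.2 to 48.4). Thinned, the shares were 2.598%, 16.3% and 11.0%. *Gata3*, the type 2 regulator that tissue regulatory cells and innate-like lymphocytes also use, was found in 47.6%, 53.6% and 52.2% of cells, and in 32.2%, 25.8% and 31.01% thinned. Its level was 657, 550 and 474 CPM, with a log2 ratio of -0.25 (-0.97 to 0.55) for Vehicle over Matrigel-only. The type 2 cytokines were scarce, with 14 UMIs of *Il13* and 5 of *Il4* in Vehicle T lymphocytes and none in the other libraries.

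The 45 Vehicle cells with *Foxp3* were compared with the 93 Vehicle cells without it. This comparison lies within 1 library, groups the cells by a measured gene and carries no test, and the median depths were 2782 and 2239 UMIs. Markers of other cell types also differed between these cells, with 939 and 428 CPM of the macrophage list, 807 and 143 of the dendritic cell list, 575 and 174 of the B cell list and 298 and 0 of the basophil list. Most of the dendritic cell UMIs and all of the basophil UMIs of the *Foxp3* cells were each in 1 cell. Their part in the other differences was not tested. *Il2ra*, the high-affinity interleukin 2 receptor chain, was 8.49 times as high (5.89 to 12.6). *Ctla4*, an inhibitory receptor, was 8.07 times as high (5.42 to 12.4), and *Ikzf2*, the transcription factor Helios, was 5.05 times as high (3.99 to 6.43). Of the 45 cells, 37 had *Il2ra*, 36 *Ctla4*, 31 *Gata3* and 30 *Izumo1r*, the folate receptor 4 of regulatory cells. The costimulatory receptors *Tnfrsf9* and *Tnfrsf4* were 5.01 and 4.54 times as high. Not all regulatory genes were higher, with *Nrp1*, a co-receptor of thymic regulatory cells, at a ratio of 0.766 (0.339 to 1.62) and *Il10*, an inhibitory cytokine, at 1.30 (0.411 to 3.92). *Cd4* was at 0.835 times the level of the other cells, and 24 of the 45 had a *Cd4* UMI.

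*Gzmb*, encoding the serine protease granzyme B, was among the genes higher with *Foxp3*. It stood at 1885 CPM in cells with *Foxp3* and 345 CPM in those without, a ratio of 5.47 (4.29 to 7.04), and 25 of the 45 cells had it. *Ifng*, encoding interferon gamma, was absent from the cells with *Foxp3* and had 116 UMIs in the others, of which 75% came from 1 cell. *Tcf7*, a factor of naive and memory cells, had 1 UMI against 60, and *Cxcr6*, a homing receptor of tissue T cells, was at a ratio of 0.177 (0.0943 to 0.308). The interferon-inducible gene *Ifi27l2a* was seen in 45 of 45 cells with *Foxp3* and in 52 of 93 without, at 5079 and 1631 CPM. The 6 Palo cells with *Foxp3* all had *Il2ra* and *Gata3*, and 5 had *Ctla4*, but none had *Izumo1r*.

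**Figure D3:**
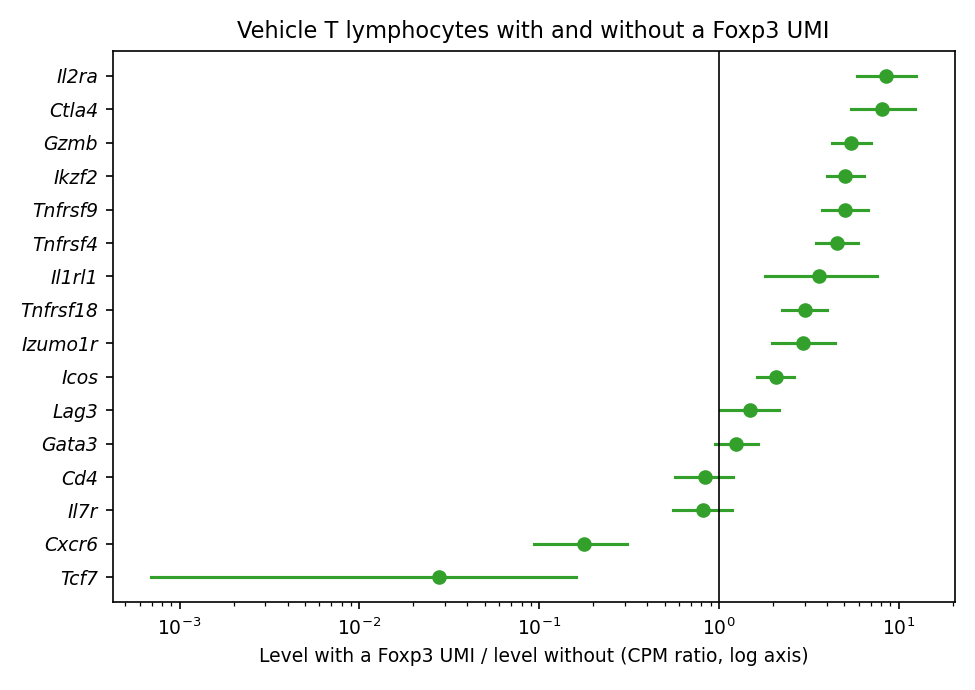
Ratio of summed expression in the 45 Vehicle T lymphocytes with a *Foxp3* UMI to that in the 93 without, on a log axis, with 95% intervals of the ratio. *Il2ra*, *Ctla4* and *Gzmb* lie to the right of 1 and *Cxcr6* to the left of it, while the interval of *Gata3*, 0.947 to 1.64, includes 1.

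Other subsets of Vehicle T lymphocytes were small and differed in their cytotoxic genes. The 17 genes of the cytotoxic list summed to 8144 CPM in the 7 cells with only *Cd8a*, 6327 CPM in the 8 with only *Trdc*, 3033 CPM in the 54 with only *Cd4* and 2301 CPM in the 68 with none. *Nkg7*, a cytotoxic granule gene, was present in 7 of the 7 *Cd8a* cells. The *Cd8a* cells were not of 1 kind, since 2 of the 7 also had *Foxp3*. Cells with *Foxp3* held 17 of the 24 Vehicle *Cd8a* UMIs. The regulatory list summed to 4187 CPM in the *Cd8a* cells, 5832 in the *Cd4* cells, 4309 in cells with none and 386 in the *Trdc* cells. The *Trdc* cells held 64 UMIs of *Gzma*, encoding granzyme A, all in 4 of the 8 cells, together with 4366 CPM of the 10 NK genes. The NK genes stood at 2409 CPM in the *Cd8a* cells, 599 in cells with none and 134 in the *Cd4* cells. In the *Cd8a* cells 2065 CPM of this was *Gzma*, which is also on the cytotoxic list, from 3 of the 7 cells. The interferon-inducible list had another order, at 5781 CPM in the *Cd4* cells, 4450 in cells with none, 3957 in the *Cd8a* cells and 713 in the *Trdc* cells.

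Gene levels were then compared between the T lymphocytes of the libraries, in CPM, that is, summed UMIs scaled to the totals of 25872 Matrigel-only, 403739 Vehicle and 56943 Palo UMIs. Ratios are given as log2 after adding 5 CPM to both levels, and a gene was counted when it was at least 2-fold apart. For Vehicle over Matrigel-only, 496 of 2566 genes (19.3%) were at least 2-fold higher and 237 (9.24%) at least 2-fold lower, with a median of 0.08 over all genes. Most of the compared UMIs were from the 138 Vehicle cells, so that many genes could be compared only because they were high there. Among the 759 genes with at least 5 UMIs expected in the shallower library, 106 (14%) were higher and 31 (4.08%) lower. When the genes at 0 in 1 library were set to the limit of 3 UMIs, 352 of the 2566 (13.7%) were higher. Scaling by TMM factors moved that median to 0.40 and the split to 729 (28.4%) and 91 (3.55%). For Palo over Vehicle, 103 of 2724 genes (3.78%) were higher and 351 (12.9%) lower, with a median of -0.04. Palo over Matrigel-only allowed 375 genes, of which 30 (8%) were higher and 16 (4.27%) lower. Vehicle enters the first and the second of these comparisons, so their values are not independent of each other.

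Interferon-inducible genes were higher in Vehicle T lymphocytes than in those of the other libraries. All 8 of the 8 list genes that could be compared were at least 2-fold higher in Vehicle than in Matrigel-only, against 19.3% of all genes, with a median log2 ratio of 1.94. Most of these genes had 1 or 2 Matrigel-only UMIs or none, and passed the minimum through Vehicle, so the count supports nothing by itself. With *Ifi47*, at 0 in Matrigel-only, set to its limit, 7 of 8 were 2-fold higher, against 13.7% of all genes so treated. With at least 5 UMIs expected in the shallower library 4 genes were left, all of them 2-fold higher, against 14% of all genes, with a median of 1.68. The summed level of the 15 genes was 1237, 4694 and 1686 CPM, a log2 ratio of 1.92 (1.42 to 2.48) for Vehicle over Matrigel-only. For Palo over Vehicle, 7 of 9 were at least 2-fold lower, against 12.9% of all genes, with a median of -1.71. List genes could pass the minimum through Vehicle here too, so this count also supports nothing by itself. With at least 5 UMIs expected in the shallower library, 7 of 8 were lower, against 10.7% of all genes, with a median of -1.88. The summed log2 ratio of Palo over Vehicle was -1.48 (-1.79 to -1.18). The interval of the summed ratio of Palo over Matrigel-only, 0.45 (-0.14 to 1.07), included 0. Per cell, the median was 6.63, 39.1 and 10.5 UMIs of the list per 10000, with 10 of 21, 8 of 138 and 5 of 23 cells at 0.

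The same list was also read in the other cells of each library. NK cells had 438, 774 and 585 CPM in Matrigel-only, Vehicle and Palo, macrophages 3495, 3829 and 3574, and mesenchymal cells 1184, 392 and 658. In mesenchymal cells Vehicle was the lowest of the 3 libraries. Differences between cell types were not tested.

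*Ifi27l2a*, an interferon-inducible gene of unclear function in T cells, carried most of the list's UMIs. It had 21, 1180 and 68 UMIs, or 812, 2923 and 1194 CPM, with log2 ratios of 1.84 (1.23 to 2.55) for Vehicle over Matrigel-only and -1.29 (-1.67 to -0.94) for Palo over Vehicle. It was highest in Vehicle, and neither interval included 0. *Igtp*, an immunity-related GTPase, had 2, 134 and 2 UMIs, with log2 ratios of 2.03 (0.22 to 5.16) and -3.07 (-6.30 to -1.36). *Gbp2*, a guanylate-binding protein, had 2, 84 and 0 UMIs and was at least 3.95-fold lower in Palo than in Vehicle, taking the level of 3 UMIs as the limit for 0. *Isg15*, a ubiquitin-like modifier, had 1, 73 and 2 UMIs and was lower in Palo by a log2 ratio of -2.21 (-5.44 to -0.46). *Irf7* and *Bst2* were the list genes that were not 2-fold apart between Palo and Vehicle, at log2 ratios of 0.02 and -0.41.

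The interferon difference was also read without the *Foxp3* cells. Within Vehicle, the list stood at 7288 CPM (6864 to 7732) in cells with *Foxp3* and at 3140 CPM (2925 to 3367) in those without. Leaving out all cells with *Foxp3*, 7 of 7 genes were at least 2-fold higher in Vehicle than in Matrigel-only, against 15.6% of all genes. Genes could again pass the minimum through Vehicle, so this count supports nothing by itself. The summed log2 ratio was 1.62 (1.05 to 2.26). For Palo over Vehicle, 5 of 7 were at least 2-fold lower, against 14.8% of all genes, a count with the same limit. The summed log2 ratio was -0.65 (-1.08 to -0.26), against -1.48 with all cells. The deepest Palo cell, with 16706 UMIs and 18 of the list, also had *Foxp3* and was left out here. Leaving out that cell alone gave -1.28 (-1.62 to -0.95). Among cells with only *Cd4*, 54 in Vehicle and 8 in Palo, 6 of 7 genes were at least 2-fold lower in Palo. The share over all genes was 15.5% and the median of the list -1.73. The 8 Palo cells included the deepest one, with 16706 UMIs, and the count has the limit given above.

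The promoters of *Gbp2*, *Igtp* and *Isg15* are shown because these were the 3 list genes with a promoter entry that were lowest in Palo over Vehicle. They are windows of 300 bases around the annotated start from RefSeq on GRCm38.p6, on the strand of the gene, 5′ to 3′. *Gbp2* is at chr3:142620413-142620712 (+), *Igtp* at chr11:58199306-58199605 (+) and *Isg15* at chr4:156200769-156201068 (-). Capitals mark matches on either strand to the interferon-stimulated response element, searched as GAAA, any 2 bases and GAAA, and to the interferon gamma-activated site, searched as TTCNNNGAA.
Gbp2: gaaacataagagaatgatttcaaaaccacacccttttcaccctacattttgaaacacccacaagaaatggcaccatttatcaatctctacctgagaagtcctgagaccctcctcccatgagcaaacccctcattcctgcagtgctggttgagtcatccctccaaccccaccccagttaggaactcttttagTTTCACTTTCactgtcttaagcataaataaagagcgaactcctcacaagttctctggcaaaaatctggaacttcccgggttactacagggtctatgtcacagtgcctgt
Igtp: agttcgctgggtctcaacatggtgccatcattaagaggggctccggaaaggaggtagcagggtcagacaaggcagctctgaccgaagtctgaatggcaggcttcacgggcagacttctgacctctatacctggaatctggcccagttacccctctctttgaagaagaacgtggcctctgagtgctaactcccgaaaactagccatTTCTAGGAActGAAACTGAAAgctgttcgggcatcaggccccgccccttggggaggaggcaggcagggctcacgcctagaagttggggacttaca
Isg15: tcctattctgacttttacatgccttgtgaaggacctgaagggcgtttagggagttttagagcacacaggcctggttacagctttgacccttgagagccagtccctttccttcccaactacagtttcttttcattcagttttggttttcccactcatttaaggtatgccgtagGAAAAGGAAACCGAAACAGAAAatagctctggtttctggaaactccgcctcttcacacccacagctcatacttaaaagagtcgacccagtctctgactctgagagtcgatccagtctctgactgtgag
*Gbp2* had 1 response element match, *Igtp* 1 of each kind at different bases, and *Isg15* 3 overlapping response element matches. Of the 15 list genes, 9 had an entry, and 6 of these 9 (66.7%) held the response element against 3.44% of 32851 promoters of the same length. The gamma-activated site was in 2 of 9 (22.2%) against 8.30%. The list was chosen as interferon-inducible genes, so these shares describe the choice of genes and are no result about the T lymphocytes. A match describes letters in the window and not a bound site.

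**Figure D4:**
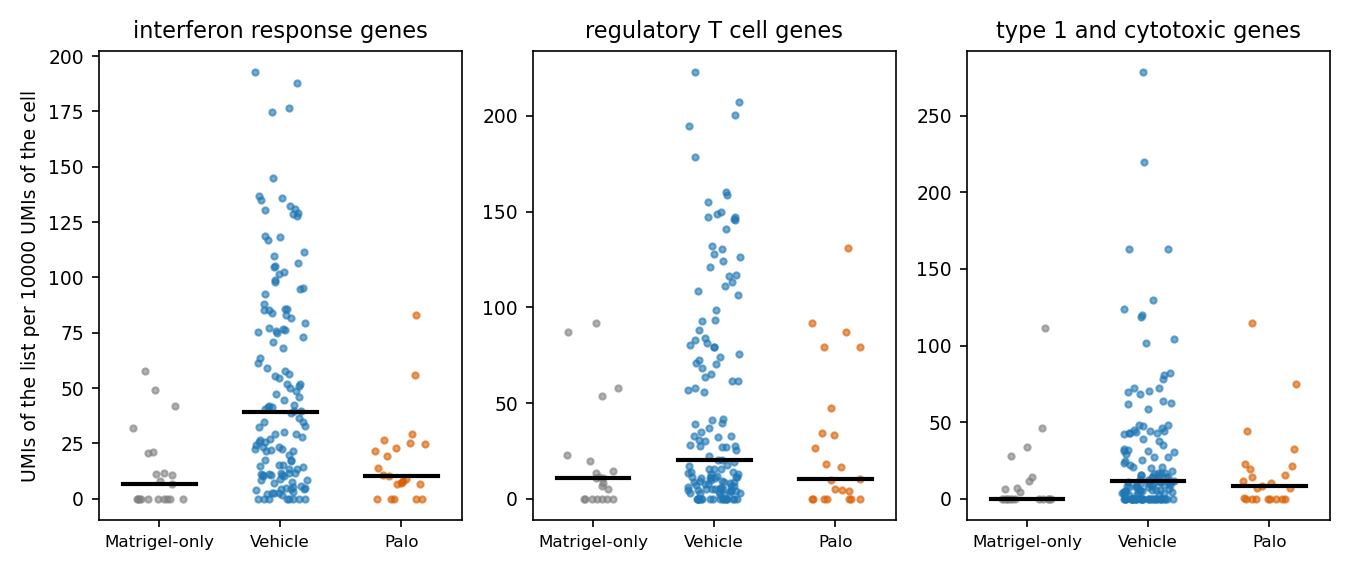
UMIs of the interferon-inducible, regulatory and type 1 or cytotoxic gene lists per 10000 UMIs in each T lymphocyte, by library; each point is 1 cell and the black line is the median. The interferon-inducible median is 39.1 in Vehicle against 6.63 in Matrigel-only and 10.5 in Palo, and cells of every library reach 0.

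The summed level of cytotoxic and type 1 genes was highest in Vehicle T lymphocytes, at 1121, 3200 and 1247 CPM. Of 8 comparable genes, 6 were at least 2-fold higher and 1, the chemokine gene *Ccl5*, was at least 2-fold lower in Vehicle than in Matrigel-only, against 19.3% and 9.24% of all genes. The median was 3.58. With the 3 genes at 0 in Matrigel-only set to their limit, 4 of 8 were higher, against 13.7% of all genes, and the median was 0.90. With at least 5 UMIs expected in the shallower library, 4 of 5 were higher and 1 lower, against 14% and 4.08% of all genes. In Palo against Vehicle, 5 of 8 were at least 2-fold lower, against 12.9% of all genes, with a median of -2.54. The median was -1.08 with the 3 genes at 0 set to their limit, and the summed log2 ratio was -1.36 (-1.73 to -1.01). With at least 5 UMIs expected in the shallower library, 4 of 7 were lower, against 10.7% of all genes. In both comparisons genes could pass the minimum through Vehicle, so the counts of 6 and 5 support nothing by themselves. NK cells, which use these genes most, had 11670, 20812 and 13089 CPM. The 10 NK genes in T lymphocytes summed to 116, 780 and 70.3 CPM (3, 315 and 4 UMIs). *Gzma*, which is on both lists, was their most abundant gene in Vehicle, with 148 UMIs, and *Klra8* was the NK gene at 0 there. In Palo, *Ncr1*, *Klrb1c*, *Klre1*, *Klra8*, *Klra7*, *Eomes* and *Gzma* were at 0.

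The size of the cytotoxic difference depended on which cells were included. Without the *Foxp3* cells, the summed log2 ratio was 1.59 (1.05 to 2.19) for Vehicle over Matrigel-only and -0.57 (-0.96 to -0.20) for Palo over Vehicle. The deepest Palo cell was among the *Foxp3* cells. Leaving out that cell alone gave -0.88 (-1.25 to -0.53) for Palo over Vehicle. Leaving out the 17 Vehicle cells, 1 Matrigel-only cell and 1 Palo cell with at least 2 NK genes, 2 of 5 genes were at least 2-fold higher and 1 lower in Vehicle than in Matrigel-only, against 19.7% and 7.42% of all genes, with a median of 0.88 and a summed log2 ratio of 1.11 (0.57 to 1.71). For Palo over Vehicle, 2 of 5 were then at least 2-fold lower, against 13.2% of all genes, and the median was 0.63, whereas the summed log2 ratio was -1.11 (-1.50 to -0.74). The median and the sum thus had opposite signs.

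*Gzmb* had 1, 372 and 3 UMIs, in 1 of 21, 48 of 138 and 3 of 23 cells, or 38.7, 921 and 52.7 CPM. Its log2 ratio was 4.41 (2.09 to 9.88) for Vehicle over Matrigel-only and -4.01 (-6.41 to -2.57) for Palo over Vehicle. *Gzma* had 1, 148 and 0 UMIs and was at least 6.96-fold lower in Palo than in Vehicle. *Lag3*, an inhibitory receptor of activated T cells, had 119 UMIs in 30 Vehicle cells and none elsewhere, which made it at least 2.54-fold higher than in Matrigel-only and at least 5.60-fold lower in Palo. *Ifng* was read only in Vehicle, in 12 cells, and 75% of its UMIs were from 1 of them. *Nkg7* had 155, 500 and 457 CPM, and its log2 ratio for Palo over Vehicle was -0.13 (-0.78 to 0.46).

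**Figure D5:**
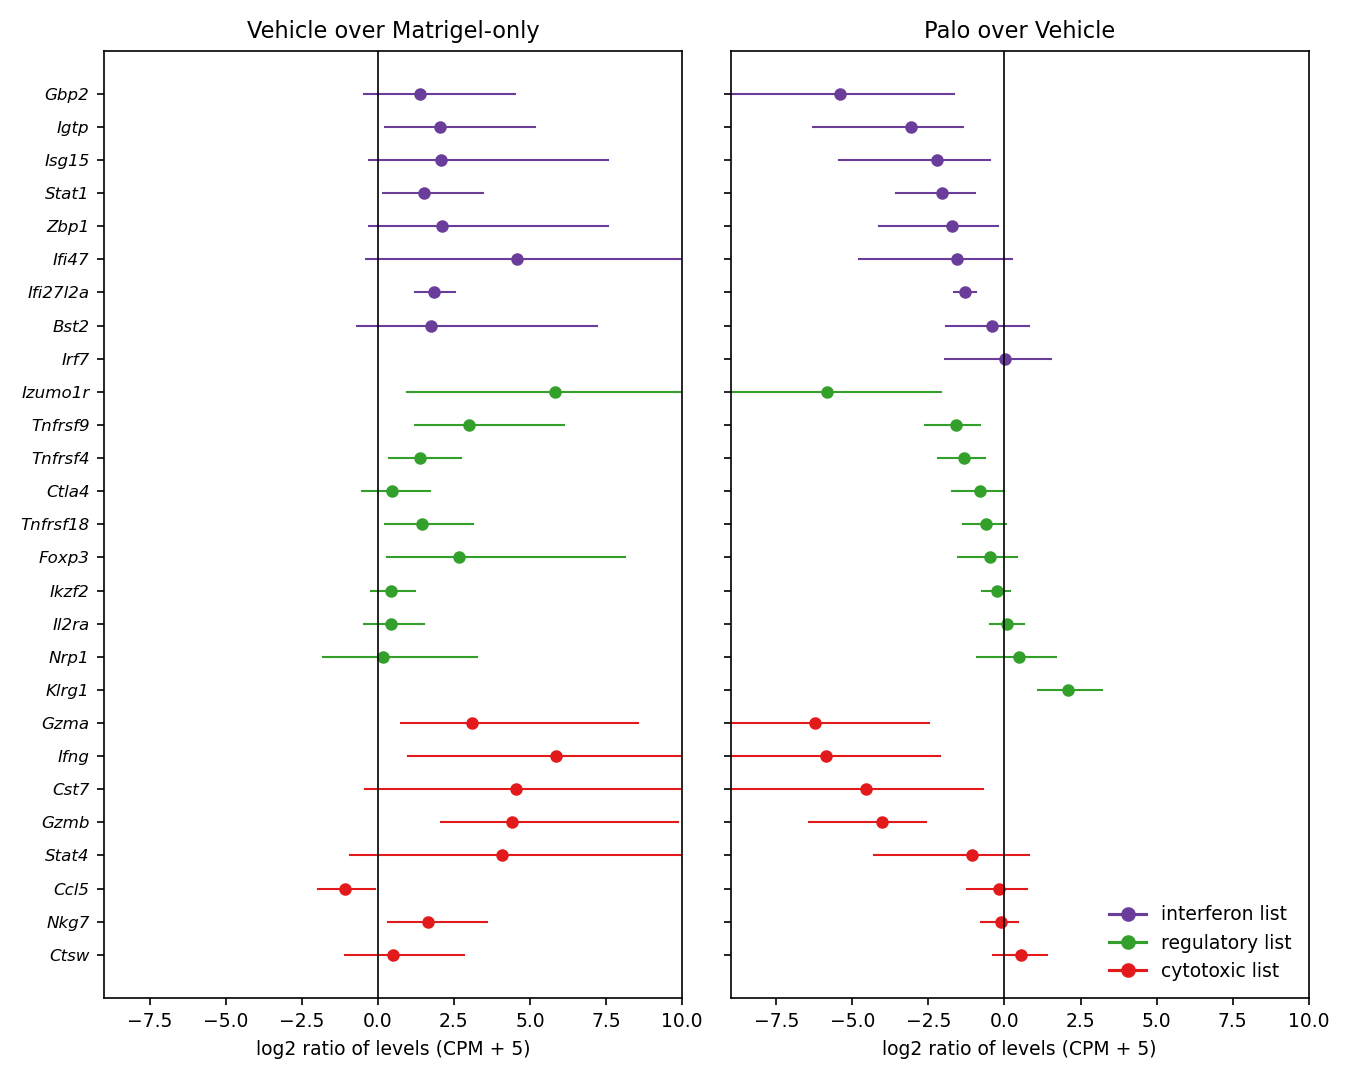
Log2 ratio of the level of each compared gene of the interferon-inducible, regulatory and cytotoxic lists in T lymphocytes. The panels show Vehicle over Matrigel-only and Palo over Vehicle, and lines are 95% intervals. A line that runs to the edge of the panel continues beyond it. *Gzmb* is at 4.41 and -4.01, and *Igtp* is below 0 for Palo over Vehicle, at -3.07.

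The summed level of regulatory genes was highest in Vehicle T lymphocytes. Of 9 comparable genes, 5 were at least 2-fold higher in Vehicle than in Matrigel-only, against 19.3% of all genes, with a median of 1.39. With *Izumo1r*, at 0 in Matrigel-only, set to its limit, 5 of 9 were higher, against 13.7%, and the median was 1.27. With at least 5 UMIs expected in the shallower library, 5 of 8 were higher, against 14%. In both comparisons genes could pass the minimum through Vehicle, so the 2-fold counts of this list support nothing by themselves. With all cells included, the list summed to 2126, 4649 and 3126 CPM, a log2 ratio of 1.13 (0.74 to 1.54) for Vehicle over Matrigel-only. Without the cells that had *Foxp3*, itself a gene of the list, that ratio was 0.10 (-0.36 to 0.59), with 3 of 7 genes higher and 2 lower, against 15.6% and 7.97% of all genes. The ratio of Palo over Vehicle was then -0.99 (-1.63 to -0.41), with 5 of 7 genes lower, against 14.8%. With all cells included it was -0.57 (-0.80 to -0.35). In Palo against Vehicle, 3 of 10 were at least 2-fold lower and 1, *Klrg1*, at least 2-fold higher, against 12.9% and 3.78% of all genes, with a median of -0.54. *Klrg1* had 71.4% of its 14 Palo UMIs in 1 cell, and without the deepest Palo cell none of 9 genes was 2-fold higher, against 5.12% of all genes. *Tnfrsf9* had 77.3, 654 and 211 CPM and log2 ratios of 3.0 (1.21 to 6.13) and -1.61 (-2.6 to -0.80). *Tnfrsf4* had 271, 718 and 281 CPM and log2 ratios of 1.39 (0.35 to 2.74) and -1.34 (-2.18 to -0.63). These costimulatory receptors were both highest in Vehicle. *Izumo1r* had 113 UMIs in 45 Vehicle cells and none elsewhere, and was at least 2.41-fold higher than in Matrigel-only and at least 5.31-fold lower in Palo. *Foxp3* had 38.7, 270 and 193 CPM, with -0.47 (-1.53 to 0.41) for Palo over Vehicle, and *Il2ra* had 387, 528 and 562 CPM. For these last genes, the Palo cells could not be told from the Vehicle cells at this depth.

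Cell cycle genes were highest in Palo, but 1 cell held most of their UMIs. The 15 genes summed to 734, 2403 and 4250 CPM in Matrigel-only, Vehicle and Palo. Of 12 comparable genes, 9 were at least 2-fold higher in Vehicle than in Matrigel-only, against 19.3% of all genes, with a median of 4.03. With the 7 genes at 0 in Matrigel-only set to their limit, 3 of 12 were higher, against 13.7% of all genes, and the median was 0.06, so the count of 9 rested mostly on genes that were compared only through Vehicle. Against Vehicle, 4 of 14 were at least 2-fold higher in Palo, against 3.78% of all genes, with a median of 0.78. The deepest Palo cell, with 16706 UMIs or 29.3% of the Palo total, held 153 of the 242 cell cycle UMIs, including 17 of *Mki67* and 54 of *Hmgb2*, and also had *Foxp3* and *Cd4*. Without it the median was -0.39 and the summed log2 ratio -0.12 (-0.45 to 0.20).

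*Cxcr6* and *Il7r* were lower in Vehicle than in Matrigel-only T lymphocytes. *Cxcr6* had 1121, 362 and 404 CPM, with log2 ratios of -1.62 (-2.21 to -1.0) for Vehicle over Matrigel-only and 0.16 (-0.54 to 0.80) for Palo over Vehicle. It was found in 61.9%, 42.0% and 47.8% of cells and in 54.7%, 20.03% and 30.8% thinned. *Il7r*, the receptor for the survival cytokine interleukin 7, had 1044, 339 and 404 CPM, with a log2 ratio of -1.61 (-2.22 to -0.97). By summed level both genes were highest in Matrigel-only, but 33.3% of the Matrigel-only *Il7r* UMIs were in 1 cell. The share of cells with *Il7r* was 38.1%, 39.9% and 52.2%, and 32.5%, 20.1% and 30.9% thinned. The thinned shares had the order of the levels, with overlapping intervals, and the shares as sequenced did not. *Junb*, an AP-1 transcription factor, had 2860, 1025 and 1932 CPM, with log2 ratios of -1.48 (-1.84 to -1.10) and 0.91 (0.60 to 1.22). It belongs to the immediate early and stress list, which handling of tissue also induces, and whose summed log2 ratio was -0.64 (-0.89 to -0.38) for Vehicle over Matrigel-only and 0.58 (0.39 to 0.76) for Palo over Vehicle. *Zfp36l2*, an RNA-binding protein that promotes mRNA decay, had 1855, 713 and 755 CPM. *Rgs1*, a signalling regulator of tissue T cells, was in contrast higher in Vehicle, by 2.16 (0.35 to 5.29). Thus 1 of the 9 compared residency genes was at least 2-fold higher and 1 lower. The shares over all genes were 19.3% and 9.24%, so these counts were near the background. Of 6 recirculation genes, *Satb1* was at least 2-fold higher and *Il7r* and *Tcf7* at least 2-fold lower, against 13.7% and 9.24% of all genes with zeros at their limit. *S1pr1* had 0 and 30 UMIs in Matrigel-only and Vehicle, a Vehicle level below that limit.

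*Ly6a*, a surface antigen of activated T cells, had 503, 1632 and 334 CPM, with log2 ratios of 1.69 (0.92 to 2.62) for Vehicle over Matrigel-only and -2.27 (-3.03 to -1.64) for Palo over Vehicle. *Il2rb*, the chain shared by the interleukin 2 and 15 receptors, had 193, 797 and 193 CPM, with a log2 ratio of 2.02 (0.81 to 3.68) for Vehicle over Matrigel-only. Both genes were highest in Vehicle. *Ccr2*, a chemokine receptor, had 1044, 946 and 702 CPM, and its intervals included 0 in both comparisons. *Icos*, a costimulatory receptor, had 812, 738 and 351 CPM, so it was highest in Matrigel-only and lowest in Palo. Its log2 ratio was -1.20 (-2.17 to -0.25) for Palo over Matrigel-only. Of the 7 genes of the T cell receptor complex, which include the selecting genes, none was 2-fold apart in either comparison. Of 15 receptor signalling genes, 2 were at least 2-fold higher and 1 lower in Vehicle than in Matrigel-only, and 2 of 14 were at least 2-fold lower in Palo than in Vehicle. The shares over all genes were 19.3%, 9.24% and 12.9%, so these counts were near the background.

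Retinoid genes were examined because palovarotene acts on a retinoic acid receptor. *Itga4*, the integrin alpha 4 gene, had 8, 28 and 22 UMIs, or 309, 69.4 and 386 CPM, with a log2 ratio of 2.40 (1.60 to 3.34) for Palo over Vehicle and -2.08 (-3.33 to -0.81) for Vehicle over Matrigel-only. Of the Palo UMIs of *Itga4*, 31.8% were in 1 cell. It was thus lowest in Vehicle. Among the 6 Matrigel-only cells with at least 3 marker genes it had no UMI, and no direction can be given there. *Rara*, the retinoic acid receptor alpha gene, had 6, 36 and 6 UMIs. The retinoid-inducible genes *Cyp26b1*, *Rarb* and *Tgm2* were at 0 in the T lymphocytes of every library. Of 3 comparable retinoid genes, 1 was at least 2-fold higher in Palo than in Vehicle, against 3.78% of all genes, and 2 were at least 2-fold lower in Vehicle than in Matrigel-only, against 9.24%. The summed log2 ratio of the list was -0.77 (-1.27 to -0.23) for Vehicle over Matrigel-only and 0.55 (0.15 to 0.93) for Palo over Vehicle. For Palo over Matrigel-only the summed log2 ratio was -0.22 (-0.82 to 0.40).

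Several of the other genes higher in Palo than in Vehicle were concentrated in 1 cell. *Cenpf*, *Cks2*, *Lmnb1*, *Ccnb2*, *Ube2c* and *Stmn1* had 50.0% to 71.4% of their Palo UMIs in 1 cell. *Ubb*, a ubiquitin gene, was spread over 15 of the 23 cells, at 277 CPM in Vehicle and 860 in Palo, with a log2 ratio of 1.62 (1.12 to 2.13). *Tox*, a factor of persistently stimulated T cells, had 20 and 13 UMIs in Vehicle and Palo, with a log2 ratio of 2.10 (1.07 to 3.28), but 46.1% of the Palo UMIs were in 1 of the 4 cells that had it.

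The 17 glycolysis genes summed to 7151, 11297 and 8816 CPM, a log2 ratio of 0.66 (0.45 to 0.88) for Vehicle over Matrigel-only. Of 16 compared, 5 were at least 2-fold higher, against 19.3% of all genes, or 4 with a gene at 0 set to its limit, against 13.7%. Genes could pass the minimum through Vehicle, so these counts support nothing by themselves. For Palo over Vehicle the summed log2 ratio was -0.36 (-0.49 to -0.22), with 3 of 15 at least 2-fold lower, against 12.9%. *Gapdh* had 1198, 2893 and 2687 CPM. Macrophages, which are far more numerous, had glycolysis sums of 5554, 10643 and 6595 CPM, also highest in Vehicle, and the part of free RNA in the T cell values was not tested. For hypoxia genes, 1 of 10 was at least 2-fold higher in Vehicle than in Matrigel-only, against 19.3% of all genes. With a gene at 0 set to its limit, 0 of 10 were higher, against 13.7%. In Palo, 4 of 12 were at least 2-fold lower than in Vehicle, against 12.9%, or 3 of 12 with a gene at 0 set to its limit, against 12.1%.

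Transcripts of other cell types were read in the T lymphocytes. Their macrophage list summed to 271, 619 and 492 CPM and the mesenchymal list to 1082, 753 and 422 CPM, below the levels over all passing cells, as the selection on genes of both lists in part required. The B cell list summed to 271, 325 and 193 CPM, above the 82.9, 39.4 and 98.6 CPM over all passing cells, and was mostly *Ighm*, an immunoglobulin heavy chain gene, with 116 of 131 UMIs in Vehicle, while *Cd79a* and *Ms4a1* were at 0. The endothelial list was *Pecam1* alone, at 0, 81.7 and 70.2 CPM against 13.5, 33.6 and 8.68 CPM over all passing cells, with *Cdh5*, *Kdr* and *Emcn* at 0. In Vehicle, 1 cell held most of the 158 dendritic cell list UMIs. The part of these transcripts in the other results was not tested. A single Vehicle cell held 45 UMIs of basophil genes, 23 of them *Mcpt8*. *Ifitm3*, an interferon-inducible gene that macrophages and mesenchymal cells also carry, had 0, 200 and 0 UMIs, and its log2 ratio of Vehicle over Matrigel-only was -0.02 without the limit on *C1qa* and *Csf1r*. Its Vehicle level lay below that of the whole library, and the part of free RNA in it was not tested.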

How the data were processed

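Processed files of 3 droplet libraries were used. Per the submitters' processing notes, the authors ran Cell Ranger 3.0.2 on genome build mm10 and used Seurat 3, and they deposited raw UMI counts per gene and barcode with the gene and barcode names (31053 genes, 23219 barcodes). No cell annotation was used. Library totals were 44252421 (Matrigel-only), 46317250 (Vehicle) and 46901673 UMIs (Palo). Counts of cells that passed the limits on genes and mitochondrial UMIs were 8728, 5478 and 7297.

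The T lymphocytes and the 30 gene lists (311 genes) were chosen with earlier results of these data known. Counts were summed over the T lymphocytes of a library. A gene was compared when it had at least 30 pooled UMIs in at least 10 cells, and a level of 0 was given a limit of 3 UMIs over the cells of that library. Exact (Clopper-Pearson) binomial intervals at 95% were used for shares and exact Poisson-based intervals for levels and ratios. Genes named were the list genes with a difference of at least 2-fold or that carry a result, and per comparison and direction the 10 genes at least 2-fold apart whose interval had its nearer bound farthest from 1, among genes at or above their library's level, with 5 more below it. Of these, the ones described here are a selection, and some are not reported here. Detection after thinning to 700 UMIs used the exact hypergeometric formula. NK, B, mesenchymal and macrophage cells were set apart by marker genes. NK cells had at least 2 of *Ncr1*, *Klrb1c*, *Klre1*, *Klra8* and *Eomes* and fewer than 2 of the 4 selecting genes. They met the same limits on *C1qa*, *Csf1r* and mesenchymal UMIs as the T lymphocytes. Scrublet (scanpy 1.11.5) made 1, 3 and 0 calls, too few to have worked, so no cell was removed, and leaving out its highest scores was an alternative. Python 3.11.15, numpy 2.4.6, scipy 1.17.1, pandas 2.3.3, matplotlib 3.10.9 and, for TMM factors only, edgeR 4.0.16 in R 4.3.3 were used, and the scripts were tested on simulated data. No p-value was computed, because each group had 1 library.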

Additional observations from a re-analysis of the deposited data

How the results depend on the processing

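No paired analysis was possible because each group had 1 library and the replicate number was 1 in all. Alternatives with members left out (*Foxp3* cells, NK gene cells, the top *Ifng* and basophil cells, the deepest Palo cell) or with at least 5 expected UMIs were chosen after seeing the data. The comparison of only *Cd4* cells could not be made for Vehicle over Matrigel-only, which had 1 such cell. The T cell share of Vehicle minus Matrigel-only was 1.74 points with at least 3 marker genes, 1.20 thinned and 3.05 among cells low in mesenchymal UMIs, and that of Vehicle minus Palo 1.66, 1.19 and 2.99. The Vehicle *Cd4* share was 39.9% without thinning and 3.67% with at least 2 UMIs. Genes higher and lower in Vehicle than in Matrigel-only numbered 1464 and 820 at 10 pooled UMIs, 174 and 62 at 60, 106 and 31 at 5 expected UMIs, and 248 and 127 without *Foxp3* cells, with 91 lower under TMM and 156 without NK gene cells. Genes higher and lower in Palo than in Vehicle numbered 428 and 1031 at 10, 23 and 106 at 60, and 54 and 211 at 5 expected UMIs, with 187 lower in only *Cd4* cells and 232 without *Foxp3* cells.

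Medians of Vehicle over Matrigel-only were, for cell cycle genes, 6.28 and 2.27 with 1 and 20 CPM added, 2.58 at 60 pooled UMIs, 2.90 with cells weighted alike, 5.07 with 3 marker genes, 2.56 without high doublet scores, 2.58 at 5 expected UMIs, 2.20 without *Foxp3* cells and 2.58 without NK gene cells. For cytotoxic genes they were 2.51 with 20 CPM added, 2.38 at both 10 and 60 UMIs, 4.98 with 3 marker genes, 2.32 without the myeloid limit, 2.52 without *Foxp3* cells and 0.88 without NK gene cells. With 3 marker genes, interferon genes were at 4.6 and regulatory genes at 3.99, the latter 0.58 without *Foxp3* cells. For Palo over Vehicle, cytotoxic genes were at -1.78 with 20 CPM, -0.82 and -2.09 at 10 and 60 UMIs, -1.99 weighted alike, -1.89 with 3 marker genes, -3.03 in only *Cd4* cells, -4.01 at 5 expected UMIs, -1.53 without *Foxp3* cells, -1.10 without the top *Ifng* and basophil cells, and 0.63 without NK gene cells, a reversal. Interferon genes were at -2.05 at 60 UMIs, -2.12 weighted alike, -1.22 without *Foxp3* cells and -1.24 without the deepest Palo cell. Regulatory genes were at -1.27 with 3 marker genes, -0.26 without the myeloid limit, -1.35 in only *Cd4* cells and -2.67 without *Foxp3* cells. Cell cycle genes were at 0.03 weighted alike, 1.48 with 3 marker genes, 1.34 in only *Cd4* cells, 1.07 without NK gene cells, and reversed to -1.13 without *Foxp3* cells and -0.39 without the deepest Palo cell. Among single genes, *Itga4* had a value of 3.87 for Vehicle over Matrigel-only with 3 marker genes, where Matrigel-only had no UMI in 6 cells and the sign rests on the added CPM, and *Ifitm3* reversed to -0.02 without the myeloid limit. Causes were not tested. The 21 Matrigel-only cells limit the depth: 1 UMI there is a level of 38.7 CPM.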
